A study of Homo sapiens with 8 samples.

Results

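Solute carriers are the membrane proteins that move amino acids, ions, metals, vitamins, nucleosides, sugars and other small molecules into, out of and within the cell. The genes described here are the solute carriers with a clear signal in HuCCT1, an established human cell line from a cancer of the bile duct, besides the glucose transporters of the SLC2A and SLC5A families. Each gene was represented by its brightest probe set, a group of probes on the array that reads one transcript, and genes were kept where the mean of the 4 control shRNA arrays was at least 8 on the log2 scale. Of 350 solute carriers measured, 160 met that limit, out of 19775 genes in all. Expression was measured on 8 Affymetrix HG-U133 Plus 2 arrays, in 4 samples with a scrambled control shRNA and in 4 with an shRNA against YAP1 (named YAP shRNA 1 in the labels, so a single hairpin). All 8 samples carried an inducible hairpin and received doxycycline at 100 ng/ml, starting 3 days before the cells were seeded, so the agent is common to both groups. The series thus rests on 1 cell line and 1 hairpin. The design asks which transcripts differ once YAP1, the coactivator through which the Hippo pathway controls transcription, is knocked down. The labels do not say whether a group's 4 samples came from separate cultures, so the p-values reflect only how far these samples spread, and that spread may be technical.

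The SLC families are grouped by sequence, and each family tends to share a kind of substrate. Some work alone and others need a partner: SLC7A5, the large neutral amino acid exchanger LAT1, reaches the cell surface only as a pair with the SLC3A2 heavy chain. SLC12A2, the NKCC1 cotransporter, loads chloride into secretory epithelial cells, and bicarbonate and anion exchangers of the SLC4 and SLC26 families shape the fluid that bile duct cells secrete. SLC25 carriers cross the inner mitochondrial membrane, SLC30 and SLC39 proteins move zinc out of and into the cytosol, and SLC35 proteins feed activated sugars to the Golgi. YAP has been linked to the uptake of amino acids in other liver cancers, through SLC7A5 and SLC38A1.

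The targeted gene and the cell identity were checked first. YAP1 stood at 12.59, 12.61, 12.77 and 12.60 on the control shRNA arrays and 10.40, 10.55, 10.51 and 10.54 on the YAP shRNA arrays, a 4.41-fold fall (limma adjusted p = 6.15e-07). Of 8 markers of bile duct epithelium, all lay between 8.41 and 14.20 in the control mean, and 3 of them, KRT19, CDH1 and MUC1, rose. The measured markers of leukocytes, endothelium, fibroblasts and hepatocytes, 2, 3, 4 and 3 genes, lay between 3.16 and 7.95 in the control mean. Per array, their mean level ranged from 3.43 to 3.66, 5.40 to 5.68, 5.88 to 6.13 and 5.43 to 5.62 in the control group. In the YAP shRNA group it ranged from 3.32 to 3.59, 5.50 to 5.76, 6.18 to 6.24 and 5.41 to 5.69. PTPRC fell from 3.96 to 3.74 (limma adjusted p = 0.0408). COL1A1 rose from 7.95 to 8.48 (limma adjusted p = 0.00316), and so passed the limit of 8 in the YAP shRNA group. These values carry no detection call, so a low level cannot be told from no signal. The array of control shRNA replicate 4 stood apart. It lay farthest from the median of its group for 92 of the 160 solute carriers, against 16 to 30 for the other control arrays, and across genes it correlated with its own group at 0.9967 on average, where the other controls reached 0.9978 to 0.9980. Counts are therefore also given without it.

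The limit on level chose the members, so the levels themselves are a description. Control means ran from 8.04 to 13.94 with a median of 10.25. Just inside the limit were SLC35E4 at 8.04, SLC24A1 at 8.13 and SLC16A14 at 8.14, and just outside it were SLC25A18 at 7.90, SLC22A31 at 7.90 and SLC12A4 at 7.87. Since the control arrays also enter the comparison, a gene near the limit is more likely to be kept when its control values are high by chance. This touches few genes: 2 members, SLC35E4 and SLC16A14, had a YAP shRNA mean below 8, and both fell. Conversely, SLC44A4, a choline-like transporter, and SLC1A1, a glutamate importer, rose past 8 in the YAP shRNA arrays, from 7.55 to 8.19 and from 7.51 to 8.06, and are not members.

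**Figure D1:**
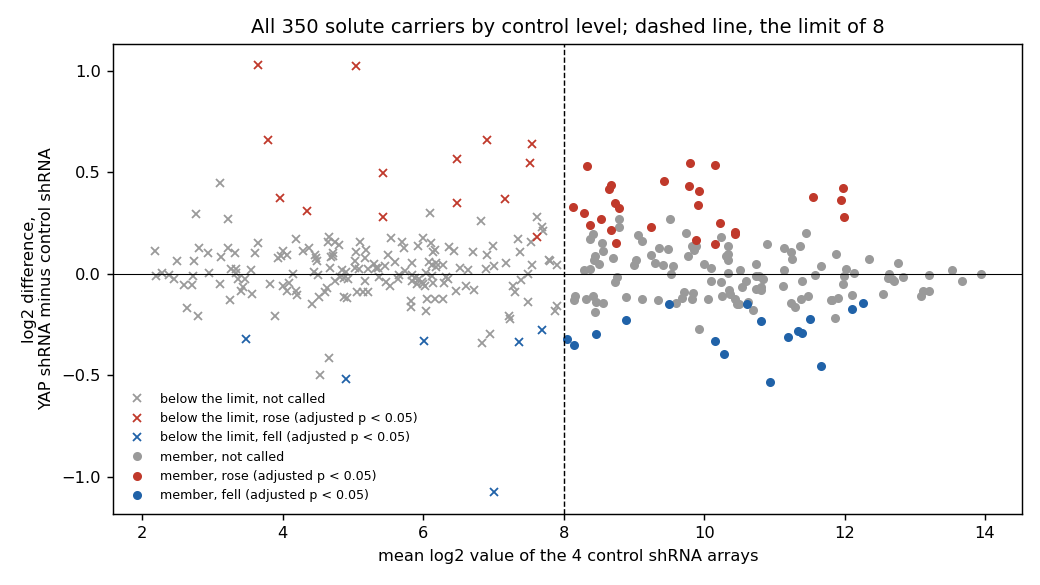
Mean log2 value on the 4 control shRNA arrays (x axis) against the log2 difference, YAP shRNA minus control shRNA (y axis), for each of the 350 solute carriers. Circles right of the dashed line at 8 are the 160 members and crosses are the 190 others; colour marks genes called at a limma adjusted p below 0.05, and no member moved as far as 1.5-fold.

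With YAP1 knocked down, 27 of the 160 solute carriers rose and 17 fell (limma adjusted p below 0.05, by Benjamini-Hochberg over every gene tested), and 116 were not called. Together, 27.5% of the members were called, where 16.7% of all 19775 genes and 26.2% of the 9125 genes with a control mean of at least 8 were called. By direction, 16.9% rose and 10.6% fell, against 9.49% and 7.17% of all genes and 14.4% and 11.8% of the genes at that level. The share of solute carriers that moved was thus close to that of other genes of like level, and because the rule used the control arrays nothing further is read from it. The arrays read bulk RNA, so less of a transcript per cell and fewer cells that hold it cannot be told apart. The changes were small. None of the 44 called members reached 1.5-fold, and 21 reached 1.25-fold. The fitted log2 differences ran from -0.53 for SLC31A2 to 0.55 for SLC18B1, with a median of 0.00044 over the members, 0.0085 over genes at that level and 0.013 over all genes. The 4 arrays of one group did not overlap the 4 of the other for 63 members (39.4%), where 24.3% of all genes and 40.3% of genes at that level did not overlap. Without control shRNA replicate 4, 33 members rose and 19 fell. In that fit, 19.6% of all genes and 30.6% of genes at that level were called.

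**Figure D2:**
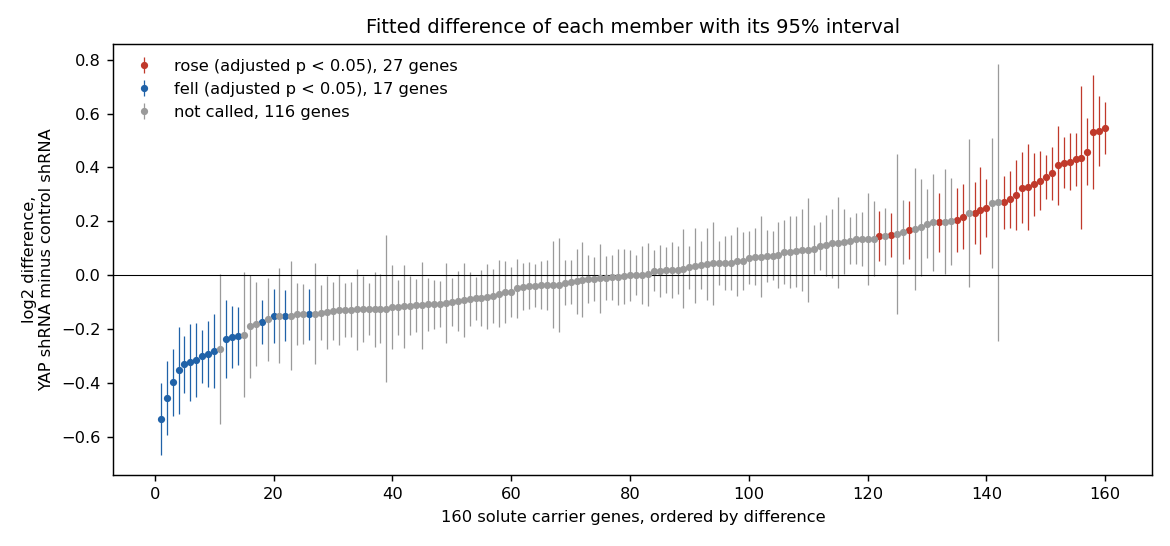
Fitted log2 difference of each of the 160 members (y axis, YAP shRNA minus control shRNA), ordered from the largest fall to the largest rise (x axis, position in that order), with 95% intervals from the limma fit. The 17 falls and 27 rises lie at the ends, and the 116 genes not called fill the middle around 0.

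The largest rise was that of SLC18B1, a vesicular polyamine transporter. Its log2 values were 9.83, 9.76, 9.76 and 9.82 on the control shRNA arrays and 10.42, 10.32, 10.31 and 10.31 on the YAP shRNA arrays. The 4 YAP shRNA arrays all lay above the 4 control arrays, and the gap was wide beside the spread of either group. The gene rose 1.46-fold, from 9.79 ± 0.038 to 10.34 ± 0.054 (mean ± SD of 4 arrays each), a log2 difference of 0.55 (SE 0.042, limma adjusted p = 9.78e-05). The largest fall was that of SLC31A2, a copper transporter of the CTR family. It read 10.86, 10.92, 10.88 and 11.11 on the control shRNA arrays and 10.47, 10.39, 10.40 and 10.39 on the YAP shRNA arrays. The highest control array was replicate 4, and the groups did not overlap. SLC31A2 fell 1.45-fold, from 10.94 ± 0.11 to 10.41 ± 0.037 (mean ± SD of 4 arrays each; limma adjusted p = 0.000517). Its relative SLC31A1, the high-affinity copper importer CTR1, had a difference of -0.035 (95% interval -0.20 to 0.13) and was not called. The 2 dimmer probe sets of SLC31A1 disagreed. The dimmest fell by 0.22 (limma adjusted p = 0.0390 with every probe set fitted), and the other gave 0.13 without a call.

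The next fall in size was SLC26A2, the sulfate transporter that supplies sulfate for proteoglycans. Its values were 11.60, 11.56, 11.69 and 11.81 on the control shRNA arrays and 11.22, 11.27, 11.14 and 11.20 on the YAP shRNA arrays. Every YAP shRNA array lay below every control array. SLC26A2 fell 1.37-fold, from 11.66 ± 0.11 to 11.21 ± 0.053 (limma adjusted p = 0.00126), and its 2 other probe sets also fell, by 0.45 and 0.52. SLC39A11, a zinc transporter of the ZIP family, was next to SLC18B1 among the rises, at 10.09, 10.21, 10.03 and 10.26 on the control shRNA arrays and 10.74, 10.66, 10.68 and 10.66 on the YAP shRNA arrays. It rose 1.45-fold without overlap (limma adjusted p = 0.000425), and 1 probe set reads it.

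**Figure D3:**
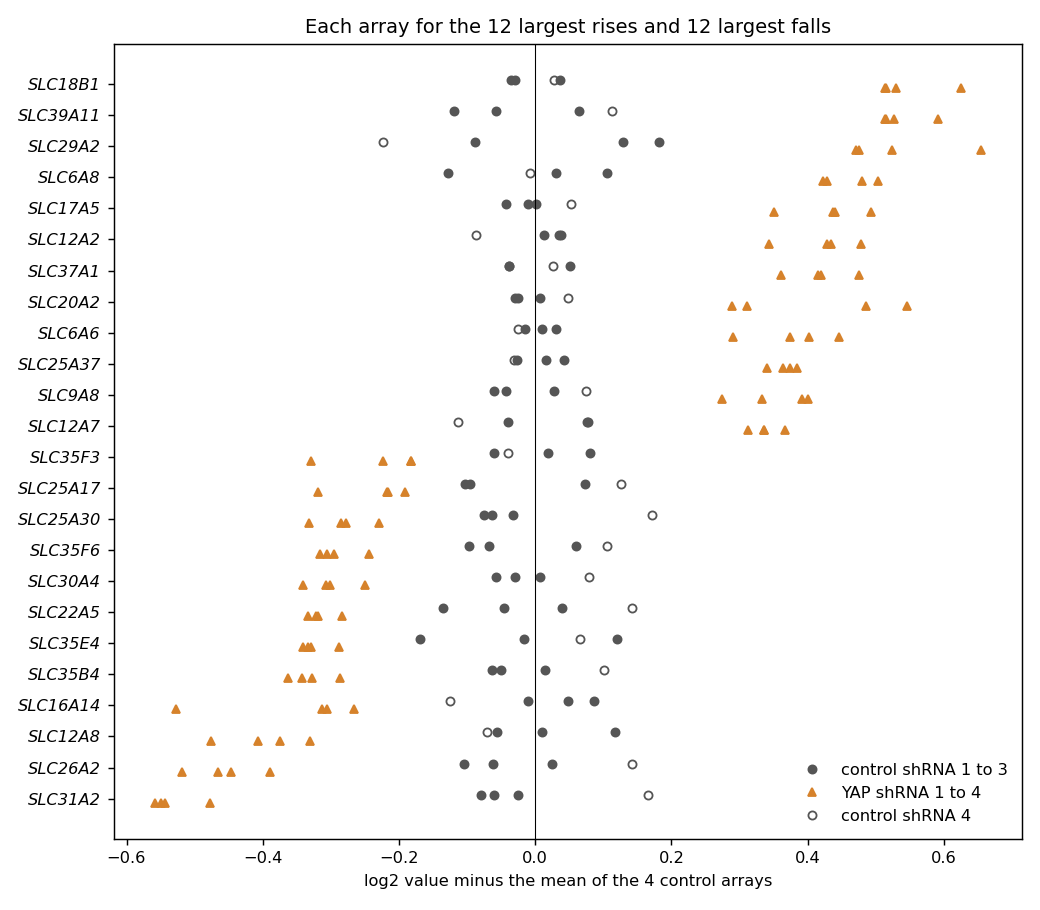
Log2 value of each array minus the mean of the 4 control arrays (x axis) for those called members without overlap that rose most (12) or fell most (12) (y axis, gene). Grey circles are control shRNA arrays, with replicate 4 open, and orange triangles are YAP shRNA arrays; for every gene shown the triangles lie to one side of the circles.

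The stretch just before the start of a gene is shown for 5 members: the largest rise (SLC18B1), the largest fall with a sequence in the table (SLC26A2), the LAT1 pair (SLC7A5 and SLC3A2), and SLC37A1, a gene that rose and holds a TEAD core motif. TEAD factors are the DNA-binding partners of YAP. Sequences are the 250 bases before the first listed start of each gene in RefSeq (GRCh38.p14), 5′ to 3′ on the strand of the gene. Capitals mark a motif found on either strand, GGAATG for the TEAD core, TGANTCA for AP-1 or TGATGNAA for the amino acid response element. The regions are chr6:132798638-132798887 on the minus strand, chr5:149960508-149960757 on the plus strand, chr21:42499372-42499621 on the plus strand, chr16:87869508-87869757 on the minus strand and chr11:62881449-62881698 on the plus strand.
SLC18B1: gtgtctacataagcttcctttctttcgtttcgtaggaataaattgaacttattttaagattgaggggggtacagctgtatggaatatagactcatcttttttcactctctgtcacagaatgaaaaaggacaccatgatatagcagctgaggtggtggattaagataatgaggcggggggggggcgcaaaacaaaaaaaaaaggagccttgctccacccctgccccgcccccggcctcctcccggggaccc
SLC26A2: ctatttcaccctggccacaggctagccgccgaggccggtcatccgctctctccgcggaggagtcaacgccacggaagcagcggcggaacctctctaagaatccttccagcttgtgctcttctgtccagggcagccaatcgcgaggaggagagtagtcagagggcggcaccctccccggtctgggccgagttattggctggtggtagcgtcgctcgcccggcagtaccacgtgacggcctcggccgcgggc
SLC37A1: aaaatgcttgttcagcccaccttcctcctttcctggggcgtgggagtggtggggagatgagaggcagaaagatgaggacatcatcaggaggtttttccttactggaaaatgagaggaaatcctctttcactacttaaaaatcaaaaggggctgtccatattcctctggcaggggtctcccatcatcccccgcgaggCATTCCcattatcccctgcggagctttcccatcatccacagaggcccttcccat
SLC7A5: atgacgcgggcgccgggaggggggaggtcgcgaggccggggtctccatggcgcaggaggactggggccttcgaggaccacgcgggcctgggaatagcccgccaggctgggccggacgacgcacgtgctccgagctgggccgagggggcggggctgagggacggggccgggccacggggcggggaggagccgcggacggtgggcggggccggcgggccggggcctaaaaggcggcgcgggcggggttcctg
SLC3A2: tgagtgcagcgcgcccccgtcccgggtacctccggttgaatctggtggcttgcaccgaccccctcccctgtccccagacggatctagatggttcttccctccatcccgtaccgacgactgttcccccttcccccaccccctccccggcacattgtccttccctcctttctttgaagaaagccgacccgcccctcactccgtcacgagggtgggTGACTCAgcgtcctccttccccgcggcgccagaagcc

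The promoters differ in base composition, from 48.0% G and C for SLC18B1 to 79.6% for SLC7A5, with a median of 58.0% over all 27305 genes in the table. In SLC37A1 the capitals mark the reverse of the TEAD core, which begins 54 bases before the start. In SLC3A2 they mark an AP-1 motif that begins 37 bases before the start, and the table lists 3 starts for this gene. No capitals appear in the other sequences, where none of the 3 motifs was found. Of 136 members in the table, 13 held the TEAD core (9.56%), against 11.9% of all promoters. It was found in 2 of 21 promoters of members that rose, those of SLC37A1 and SLC14A1, and in 0 of 12 of members that fell. The AP-1 motif was in 6 of the 136 (4.41%, against 6.60% of all promoters), and the amino acid response motif in 3 (2.21%, against 3.19%). Both strands were searched, and neighbouring matches of the 3 motifs can share bases. A match describes letters in this window only.

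Of 26 genes in the amino acid transporter class, 2 rose, 2 fell and 22 were not called. By comparison, 16.7% of all genes and 26.2% of genes at that level were called. The class was set by family symbol and includes SLC7A6OS, which encodes no carrier. The class had a median log2 difference of 0.0058. The 2 genes that rose carry amino-acid-like osmolytes and energy buffers. SLC6A8, the creatine transporter, read 9.53, 9.30, 9.46 and 9.42 on the control shRNA arrays and 9.93, 9.91, 9.85 and 9.86 on the YAP shRNA arrays, with no overlap. It rose 1.37-fold (limma adjusted p = 0.000727), and its other 2 probe sets rose by 0.31 and 0.35. SLC6A6, the taurine transporter, lay at 11.52 to 11.58 on the control arrays and 11.84 to 11.995 on the YAP shRNA arrays. It rose by 0.38 (limma adjusted p = 0.000607). Its 4 other probe sets were dimmer and disagreed: 1 rose by 0.28, and the others stood at 0.26, -0.031 and -0.20 without a call. Averaged over its probe sets, SLC6A6 stood at 0.14 and was not called (limma adjusted p = 0.0917).

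The genes of this class that fell were the 2 chains of LAT1, each by a small amount. SLC7A5, the transporting chain, read 12.15, 12.08, 12.09 and 12.08 on the control shRNA arrays and 11.93, 11.93, 11.95 and 11.89 on the YAP shRNA arrays. Its highest YAP shRNA array lay below its lowest control array, 11.95 against 12.08. The log2 difference was -0.17 (SE 0.036), or 1.13-fold (limma adjusted p = 0.0117), and the call was kept with each array left out in turn. SLC3A2, the heavy chain, read 10.59, 10.62, 10.54 and 10.71 on the control shRNA arrays and 10.45, 10.46, 10.47 and 10.48 on the YAP shRNA arrays. Here the groups also did not overlap, but the call was at the threshold. SLC3A2 fell by 0.15 (limma adjusted p = 0.0480), and it was lost with 7 of the 8 arrays left out in turn and with each array centred on its median (limma adjusted p = 0.0570). The table has 1 probe set for each of these genes.

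Other well-known amino acid carriers did not pass the test. SLC38A1 and SLC38A2, sodium-coupled glutamine and alanine transporters, stood at 13.53 and 13.20 in the control mean, with differences of 0.020 (95% interval -0.065 to 0.10) and -0.0078 (-0.090 to 0.074). For both, the sign turned under some of the settings tried. SLC7A1, an importer of arginine and lysine, had a difference of -0.086 with groups that did not overlap (95% interval -0.17 to -0.0051; limma adjusted p = 0.146). The 4 other probe sets of SLC7A1 also lay below 0. The lowest of them, at -0.33, was called as fallen (limma adjusted p = 0.0278 with every probe set fitted). SLC7A11, the cystine importer, had 0.11 (0.019 to 0.20) and SLC1A5, the neutral amino acid exchanger ASCT2, 0.12 (-0.0087 to 0.24). These intervals, each from the brightest probe set of the gene, hold no difference larger than 0.25 in size. Without control shRNA replicate 4, 5 genes of the class rose and 2 fell. SLC66A3, SLC38A9 and SLC38A6 joined the rises and SLC1A3 the falls, while SLC3A2 was no longer called. In that fit, 30.6% of all genes with a control mean of at least 8 were called.

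Genes that respond to or sense amino acids were called about as often as all genes, of which 16.7% were called. Of 12 amino acid response genes, DDIT4, an inhibitor of mTORC1 signalling, rose by 0.38 (limma adjusted p = 0.000204) and DDIT3, the stress factor CHOP, fell by 0.20 (limma adjusted p = 0.0207), and the other 10 were not called. Of 13 measured genes of mTORC1 and lysosomal amino acid sensing, LAMTOR2, a subunit of the lysosomal Ragulator scaffold, rose by 0.35 (limma adjusted p = 0.00246) and MTOR, the kinase itself, fell by 0.22 (limma adjusted p = 0.0141). As the mean of its probe sets, MTOR stood at -0.058 and was not called. Both lists had medians near that of all genes, 0.038 and 0.018 against 0.013.

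In the cation-chloride cotransporter class, 3 of 5 members rose and 1 fell. The rises include the noncoding transcript SLC12A2-DT, which is no cotransporter. Over all genes with a control mean of at least 8, 14.4% rose and 11.8% fell. SLC12A2, which brings sodium, potassium and chloride into the cell, read 12.01, 11.99, 12.01 and 11.89 on the control shRNA arrays and 12.32, 12.45, 12.41 and 12.40 on the YAP shRNA arrays. All YAP shRNA arrays lay above the controls, of which replicate 4 was the lowest. SLC12A2 rose 1.34-fold, from 11.97 ± 0.059 to 12.40 ± 0.057 (mean ± SD of 4 arrays each; limma adjusted p = 0.000513), and its other probe set rose by 0.60. The divergent noncoding transcript at the same locus, SLC12A2-DT, rose by 0.30 on its brightest probe set (limma adjusted p = 0.00797), while its 3 others stood at -0.040, 0.10 and 0.056 and were not called. SLC12A7, the potassium and chloride exporter KCC4, lay at 9.80 to 9.99 on the control arrays and 10.23 to 10.28 on the YAP shRNA arrays and rose by 0.34 (limma adjusted p = 0.00253). SLC12A8, a distant member of the family, moved the other way, at 10.40, 10.23, 10.30 and 10.22 on the control shRNA arrays and 9.91, 9.81, 9.96 and 9.88 on the YAP shRNA arrays. It fell 1.32-fold with no overlap (limma adjusted p = 0.00156).

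Of 6 anion exchanger and bicarbonate genes, SLC26A2 was the 1 called, and 5 were not, where 26.2% of genes at the same level limit were called. SLC4A2, the chloride and bicarbonate exchanger AE2 of bile duct cells, had a difference of 0.12 (95% interval -0.048 to 0.29) with overlapping groups. SLC4A7, a sodium bicarbonate cotransporter, had -0.12 (-0.22 to -0.016) on its brightest probe set. Its other probe sets disagreed, at 0.18 (control mean 8.07), -0.12 and 0.014, and were not called. This class also holds SLC4A1AP, which encodes a protein that binds the SLC4A1 exchanger and is no carrier, at -0.15; it was called as fallen without control shRNA replicate 4. SLC26A6, an anion exchanger of the apical membrane, was below the limit at 5.15 and had a difference of -0.090 (95% interval -0.39 to 0.21).

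Of 6 members in the sodium-proton and sodium-calcium exchanger class, 3 rose and 0 fell. Genes with a control mean of at least 8 rose in 14.4% and fell in 11.8% of cases. SLC9A8, a sodium and proton exchanger of the Golgi and apical membrane, rose by 0.35 (limma adjusted p = 0.00157). SLC24A1, a sodium, calcium and potassium exchanger, rose by 0.33 (limma adjusted p = 0.0137), from a level near the limit, and its 3 other probe sets, all below 6, were not called. SLC8B1, the mitochondrial sodium and calcium exchanger, had a call at the threshold with groups that overlapped (difference 0.24, limma adjusted p = 0.0499). That call was kept in 1 of the 8 fits that left out an array. The remaining members were SLC9B2 and 2 noncoding transcripts of the SLC9A3 locus, whose values are not readings of the exchanger.

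The phosphate and sugar phosphate group had the most rises of any class, 4 of 7 members with 0 falls and a median of 0.15. That count includes SLC17A5, which carries sialic acid, and the class also holds SLC17A9, which carries nucleotides. The zinc, cation-chloride and sodium exchanger classes had 3 rises each. Over all genes with a control mean of at least 8, 14.4% rose and 11.8% fell. So small a class was not tested as a set. SLC17A5, sialin, which exports sialic acid from lysosomes, read 9.77, 9.78, 9.74 and 9.83 on the control shRNA arrays and 10.22, 10.13, 10.27 and 10.22 on the YAP shRNA arrays. The groups were well apart. SLC17A5 rose 1.35-fold (limma adjusted p = 0.000324), and its other probe set rose by 0.59. SLC37A1, an endoplasmic reticulum exchanger of glucose 6-phosphate and phosphate, read 8.70, 8.61, 8.61 and 8.67 on the control shRNA arrays and 9.01, 9.06, 9.12 and 9.07 on the YAP shRNA arrays. It rose 1.34-fold without overlap (limma adjusted p = 0.000317). That value comes from a probe set marked _s_at, which can read several transcripts, and its other probe set, at 5.36 in the control mean, gave -0.039. SLC37A4, the glucose 6-phosphate transporter of the same membrane, rose by 0.15 (limma adjusted p = 0.0235). SLC20A2, the sodium-phosphate importer PiT2, rose by 0.41 (limma adjusted p = 0.00299) on its brightest probe set, while the 2 others gave 0.042 and -0.016 and were not called. Its relative SLC20A1, the importer PiT1, had -0.014 (95% interval -0.10 to 0.076). Without control shRNA replicate 4, SLC17A9, a vesicular nucleotide transporter, was called as fallen.

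Nucleoside and vitamin carriers moved in both directions, with 2 of 7 rising and 1 falling. The shares over all genes at the same level limit were 14.4% and 11.8%. SLC29A2, the nucleoside transporter ENT2, read 8.51, 8.24, 8.46 and 8.10 on the control shRNA arrays and 8.80, 8.85, 8.80 and 8.98 on the YAP shRNA arrays. The control arrays were spread more widely than the YAP shRNA arrays, without overlap. SLC29A2 rose 1.45-fold, from 8.33 ± 0.19 to 8.86 ± 0.086 (mean ± SD of 4 arrays each; limma adjusted p = 0.00525), and 2 of its 4 other probe sets rose, by 0.29 and 0.37. SLC29A1, the related ENT1, had 0.14 with no overlap (limma adjusted p = 0.0576) and was called only after quantile normalization among the scalings tried. SLC52A2, a riboflavin transporter, rose by 0.21 (limma adjusted p = 0.0282), and its other probe set rose by 0.25. SLC19A2, a thiamine importer, fell by 0.22 (limma adjusted p = 0.0116), and SLC19A1, the reduced folate carrier, had 0.069 (95% interval -0.038 to 0.18).

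**Figure D4:**
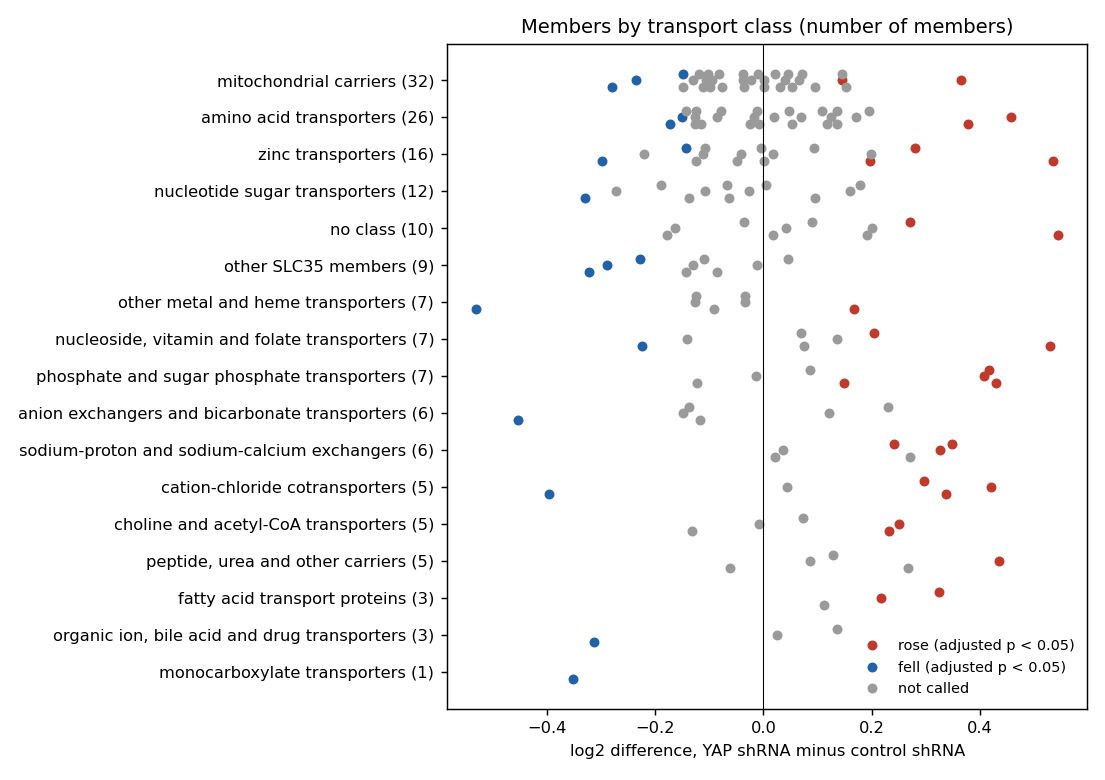
Log2 difference, YAP shRNA minus control shRNA (x axis), of each of the 160 members by transport class (y axis, with the number of members), where 1 point is 1 gene and colour marks the call. Rises outnumber falls in the phosphate group, which includes the sialic acid exporter SLC17A5, 4 against 0 of 7. The mitochondrial class holds 2 rises and 3 falls among 32 genes. Over all genes with a control mean of at least 8, 14.4% rose and 11.8% fell.

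Zinc transporters split, with 3 of 16 rising and 2 falling and a median of -0.023. At the same level limit, 14.4% of all genes rose and 11.8% fell. Besides SLC39A11, SLC30A7, which loads zinc into the Golgi, rose by 0.28 (limma adjusted p = 0.00358), with values of 11.91 to 12.08 on the control arrays and 12.23 to 12.29 on the YAP shRNA arrays. SLC39A4, the zinc importer ZIP4, rose by 0.20 (limma adjusted p = 0.0232). SLC30A4, a vesicular zinc transporter, read 8.40, 8.47, 8.43 and 8.54 on the control shRNA arrays and 8.12, 8.16, 8.21 and 8.15 on the YAP shRNA arrays. Its arrays did not overlap, and it fell by 0.30 (limma adjusted p = 0.00199), while its 2 dimmer probe sets gave 0.090 and 0.12 and were not called. SLC39A14, the zinc and iron importer ZIP14, fell by 0.14 at the threshold (limma adjusted p = 0.0476), and that call was lost with any of the 8 arrays left out.

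SLC39A10, the zinc importer ZIP10, had a larger difference than SLC39A14 but was not called. It read 11.78, 11.69, 11.79 and 12.19 on the control shRNA arrays and 11.58, 11.69, 11.65 and 11.66 on the YAP shRNA arrays. The highest array was control shRNA replicate 4, and the groups met without overlap, since replicate 2 of either group rounds to 11.69. The difference was -0.22 (95% interval -0.45 to 0.011; limma adjusted p = 0.192), and without that array it was -0.11 (limma adjusted p = 0.124). Metallothioneins, the cytosolic proteins that bind zinc and copper, had 3 of 7 genes fall and 0 rise. Falls made up 7.17% of all genes and 11.8% of genes with a control mean of at least 8. MT1G fell by 0.18 and MT1H by 0.17 (limma adjusted p = 0.0174 and 0.0203), and MT2A by 0.16 (limma adjusted p = 0.0348). These genes are near-identical copies whose probes can read one another, and MT1G stood at 0.028 on its other probe set. How far the 3 falls are readings of the same transcripts was not tested.

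Among 7 carriers of iron, copper, magnesium and heme, SLC31A2 was the 1 that fell and SLC11A2 the 1 that rose. All genes at the same level limit were called in 26.2% of cases. SLC11A2, the iron importer DMT1, rose by 0.17 (limma adjusted p = 0.0416), and 1 of its 4 other probe sets rose by 0.20, while the remaining 3 lay between -0.029 and 0.13. Its call was lost under quantile normalization and without control shRNA replicate 4, where SLC41A1, a magnesium transporter, was called as fallen instead. SLC48A1, a heme transporter, had -0.092 (95% interval -0.23 to 0.045).

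The mitochondrial carrier family was the largest group and mostly below the threshold: 2 of 32 rose, 3 fell and 27 were not called, with a median of -0.030. By comparison, 26.2% of all genes at the same level limit were called. The 32 include the noncoding transcript SLC25A25-AS1. SLC25A37, mitoferrin 1, which brings iron into mitochondria, read 11.92, 11.96, 11.99 and 11.91 on the control shRNA arrays and 12.32, 12.28, 12.31 and 12.33 on the YAP shRNA arrays. All 4 YAP shRNA arrays were higher. SLC25A37 rose 1.29-fold (limma adjusted p = 0.000285), and 5 of its 9 other probe sets rose, with values over the 9 from -0.23 to 0.34. Its relative SLC25A28, mitoferrin 2, had 0.095 (95% interval -0.10 to 0.29). SLC25A12, a carrier of aspartate and glutamate, rose by 0.15 (limma adjusted p = 0.0414), but its other bright probe set gave -0.048, and the related SLC25A13 had -0.10 (limma adjusted p = 0.136).

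The falls in this family were SLC25A30, SLC25A17 and SLC25A51. SLC25A30 read 11.27, 11.31, 11.28 and 11.51 on the control shRNA arrays and 11.11, 11.06, 11.07 and 11.01 on the YAP shRNA arrays. Control shRNA replicate 4 stood above the other controls, and without it the difference was -0.22 (limma adjusted p = 0.00555). With all arrays SLC25A30 fell by 0.28 (limma adjusted p = 0.0141), and another of its probe sets fell by 0.30. SLC25A17, a carrier of the peroxisome and not of mitochondria, fell by 0.24 (limma adjusted p = 0.0351), with 0.22 on its other probe set. SLC25A51, the mitochondrial NAD importer, fell by 0.15 (limma adjusted p = 0.0393), a call lost with any of the 8 arrays left out, although its other probe set fell by 0.23.

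The carriers that serve every respiring cell were close to 0 on their brightest probe sets. SLC25A5, the ADP and ATP carrier ANT2, stood at 13.94 in both groups, with a difference of 0.00057 (95% interval -0.074 to 0.075). SLC25A4, the related ANT1, had -0.037 (-0.13 to 0.055), and SLC25A3, the phosphate carrier, had -0.038 (-0.12 to 0.041). The dimmer probe set of SLC25A3, at 6.66 in the control mean, fell by 0.30 (limma adjusted p = 0.0381 with every probe set fitted). Of 4 mitochondrial carriers named without an SLC symbol, UCP2 was the 1 called, and its change was larger than that of any member. UCP2, an uncoupling protein family carrier, read 9.90, 9.71, 9.89 and 8.99 on the control shRNA arrays and 8.56, 8.81, 8.72 and 8.53 on the YAP shRNA arrays. Control shRNA replicate 4 lay below the other controls, yet still above every YAP shRNA array. UCP2 fell by 0.97 (limma adjusted p = 0.00939).

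In the SLC35 family, calls on the brightest probe sets were falls. Of 12 nucleotide sugar transporters, 1 fell and 0 rose, and of 9 other SLC35 members, 3 fell and 0 rose. Over all genes with a control mean of at least 8, 14.4% rose and 11.8% fell. SLC35H1, counted outside both classes, had 0.089 and was not called. Another of its probe sets rose by 0.20 (limma adjusted p = 0.0233 with every probe set fitted). SLC35B4, which carries UDP-xylose and UDP-N-acetylglucosamine to the Golgi, read 10.09, 10.17, 10.10 and 10.25 on the control shRNA arrays and 9.81, 9.79, 9.87 and 9.82 on the YAP shRNA arrays. The groups did not overlap, and SLC35B4 fell by 0.33 (limma adjusted p = 0.00182); its 2 other probe sets gave -0.13 and -0.15, not called. SLC35F6 fell by 0.29 (limma adjusted p = 0.00664), SLC35F3 by 0.23 (limma adjusted p = 0.0152) and SLC35E4 by 0.32 (limma adjusted p = 0.00838). SLC35E4 passed the limit on the control arrays alone, at 8.04 against 7.72 in the YAP shRNA mean, which favours a fall. Its other probe set gave 0.057, and averaged over its probe sets SLC35E4 stood at -0.13 and was not called (limma adjusted p = 0.161). SLC35F2 had -0.086 (95% interval -0.19 to 0.014). SLC35D1, a carrier of UDP-glucuronic acid, had -0.27 with a wide interval (-0.55 to 0.0065) and was not called, while both of its dimmer probe sets fell, each by 0.25. Without control shRNA replicate 4, SLC35D2 and SLC35C1, carriers of nucleotide sugars, were called as risen and SLC35D4 as fallen. The nucleotide sugar group then held 2 rises and 2 falls, in a fit that called 30.6% of genes at the same level limit.

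Smaller groups completed the set. Their counts stand beside 14.4% of genes at the same level limit that rose and 11.8% that fell. Of 3 fatty acid transport proteins, SLC27A5, the bile acyl-CoA synthetase of liver, rose by 0.32 and SLC27A2, a very long chain acyl-CoA synthetase, by 0.22 (limma adjusted p = 0.00564 and 0.0237). Of 5 choline and acetyl-CoA carriers, the choline-like transporters SLC44A3 and SLC44A2 rose by 0.25 and 0.23 (limma adjusted p = 0.00734 and 0.0144). The other probe set of SLC44A2 gave -0.0091. SLC22A5, the carnitine importer OCTN2, read 11.15, 11.06, 11.24 and 11.34 on the control shRNA arrays and 10.91, 10.88, 10.88 and 10.86 on the YAP shRNA arrays. It fell by 0.31 without overlap (limma adjusted p = 0.00781), while its neighbour in the family SLC22A4 had 0.025 (95% interval -0.12 to 0.17). SLC16A14, the 1 monocarboxylate family member analysed here at this level, fell by 0.35 (limma adjusted p = 0.00991) from a level near the limit. It passed the limit on the control arrays alone, at 8.14 against 7.79 in the YAP shRNA mean, which favours a fall.

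SLC14A1, the urea transporter UT-B, was called although its groups overlapped. It read 8.55, 8.50, 8.61 and 9.06 on the control shRNA arrays and 9.16, 9.08, 9.04 and 9.18 on the YAP shRNA arrays. Control shRNA replicate 4 was the highest control and lay above the lowest YAP shRNA array. The difference was 0.44 (limma adjusted p = 0.0348) and 0.56 without that array (limma adjusted p = 0.000345), and the call was lost with any other of the 8 arrays left out. Of 10 coding members outside the classes, SLC18B1 and SLC75A1 rose, the latter by 0.27 (limma adjusted p = 0.00332), and without control shRNA replicate 4 SLC68A1 and SLC67A2 were called as risen too.

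A call that was missed does not show that a gene was unchanged. Of the 116 members not called, 96 had a 95% interval of the log2 difference that lay within 0.3 of 0, and 21 had groups that did not overlap. At an unadjusted p below 0.05 there were 77 of the 160 members and 5785 of all 19775 genes. Neither this count nor the 21 was taken over genes with a control mean of at least 8. Neither is therefore read as a result about solute carriers. Of the 44 calls, 32 were kept with each of the 8 arrays left out in turn, and 17 members that were not called passed in at least 1 of these fits. The other 12 calls had limma adjusted p-values from 0.0232 (SLC39A4) to 0.0499 (SLC8B1). SLC39A14 and SLC25A51 were lost whichever array was left out. SLC3A2 was kept without control replicate 3 alone, SLC11A2 without control replicate 2, SLC14A1 without control replicate 4, and SLC8B1 and SLC25A12 without YAP shRNA replicate 3. SLC25A17 was lost without control replicate 3 or 4 or any YAP shRNA array, and SLC52A2 without control replicate 2 or 3 or any YAP shRNA array. SLC39A4 was lost without control replicate 2 or 3 or YAP shRNA replicate 1, 3 or 4. SLC27A2 and SLC37A4 were lost without control replicate 2, YAP shRNA replicate 2 or YAP shRNA replicate 4, and also without YAP shRNA replicate 1 and 3, respectively.

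The array often holds several probe sets for a gene, which read other parts of its transcripts and were not used to choose the members. For 31 of the 44 called members there were 62 other probe sets, fitted together with all 41097 probe sets that carry 1 symbol, of which 13.6% were called. Of the 62, 44 had the sign of the main probe set, 20 were called in the same direction and 0 in the opposite one. Among the 46 with a control mean of at least 6, 37 had the same sign and 19 were called, and among the 16 dimmer ones these counts were 7 and 1. At least 1 other probe set was called the same way for 13 of the 31 genes. For SLC25A12, SLC30A4, SLC35E4, SLC37A1 and SLC44A2 each other probe set had the opposite sign. With all probe sets of each gene averaged in place of the brightest alone, 19 members rose and 16 fell. In that setting, 15.2% of all genes and 23.1% of genes with a control mean of at least 8 were called. SLC6A6, SLC35E4, SLC30A4, SLC44A2, SLC27A2, SLC11A2, SLC25A12, SLC14A1, SLC24A1, SLC39A14 and SLC3A2 were among the members no longer called. All probe sets were measured on the same 8 arrays, so they are second readings of these samples and not new samples.

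**Figure D5:**
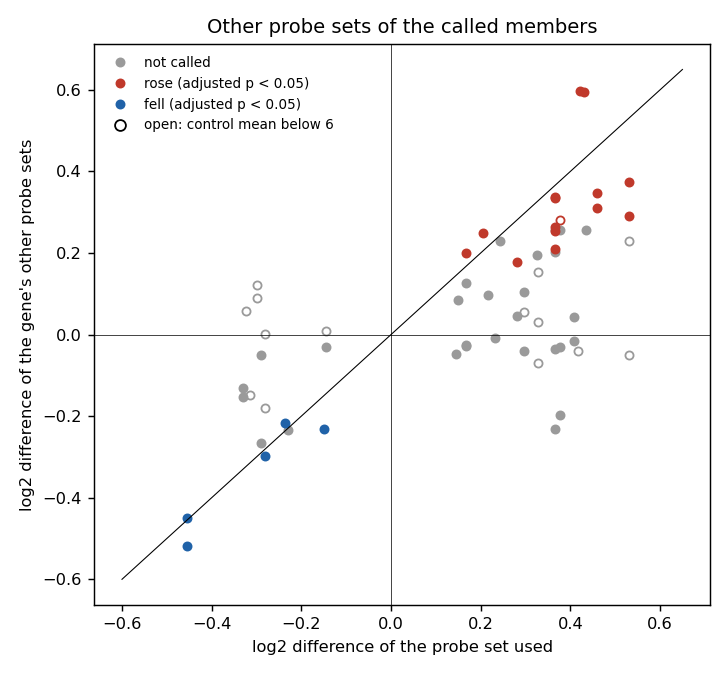
Log2 difference of the chosen probe set (x axis) against that of each other probe set of the same gene (y axis), YAP shRNA minus control shRNA, for the 31 called members with more than 1 probe set. Each of the 62 points is 1 other probe set, filled or open by its control mean; 44 lie in the quadrants where both signs agree.

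Position in the genome was not used by the rule. Chromosome 8 held 7 members, of which 4 rose (SLC20A2, SLC25A37, SLC39A4 and SLC52A2) and 1 fell (SLC39A14), with a member median of 0.20. Over the 341 genes of chromosome 8 at the same level limit, the median was 0.11, 35.8% rose and 5.28% fell, where 14.4% and 11.8% of all genes at that level did. On chromosome 18, which holds SLC14A1 and 3 other members, the median over 144 genes at that level was -0.10, with 3.47% rising and 29.2% falling. The part of this in the members' differences was not tested. Without the 7 members on chromosome 8, 23 rose and 16 fell of 153.

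Other proteins of solute transport moved in both directions: 3 of 9 SLCO transporters, 2 of 9 measured partner subunits and 3 of 9 measured pump subunits were called, where 16.7% of all genes and 26.2% of genes with a control mean of at least 8 were. Of the SLCO organic anion transporters, SLCO3A1 and SLCO4A1 rose by 0.27 and 0.25 (limma adjusted p = 0.00175 and 0.0110). SLCO1B3, a hepatic carrier of bile acids and drugs, fell by 0.46 (limma adjusted p = 0.000144), with values of 11.72 to 11.77 on the control arrays and 11.23 to 11.32 on the YAP shRNA arrays. Of 9 measured partner subunits and scaffolds, ARL6IP5, a protein that binds glutamate transporters, rose by 0.32 and NHERF2, a scaffold of sodium-proton exchangers, fell by 0.17 (limma adjusted p = 0.00209 and 0.0367). Of 9 measured pump subunits, 3 rose and 0 fell. FXYD3, a regulator of the sodium pump, rose by 1.11 (limma adjusted p = 0.000311), with values of 8.19 to 8.75 on the control arrays and 9.48 to 9.53 on the YAP shRNA arrays. ATP6V0D1 and ATP6V1B2, subunits of the vacuolar proton pump, rose by 0.27 and 0.20 (limma adjusted p = 0.0191 and 0.0454).

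The solute carriers left out by the limit show what it removed. Of 190, 14 rose and 6 fell (10.5%), and their differences reached further than those of the members, from -1.08 to 1.03. SLC4A4, the sodium bicarbonate cotransporter NBCe1, fell from 7.01 ± 0.16 to 5.94 ± 0.16 (mean ± SD of 4 arrays each; limma adjusted p = 0.000225). SLC26A9, a chloride channel and transporter of epithelia, rose from 5.04 ± 0.33 to 6.06 ± 0.24 (limma adjusted p = 0.00459), and SLC6A14, a broad importer of amino acids, rose from 3.65 ± 0.37 to 4.67 ± 0.16 (limma adjusted p = 0.00455). Levels this low carry no detection call.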

How the data were processed

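The values are the authors' deposited log2 expression values, 1 per probe set and array (54675 probe sets). Their base was inferred from the range of 1.72 to 14.9 and is not stated, and the sources used here give no background correction, summarisation or normalization. Array medians lay between 6.22 and 6.25, so the values were used as deposited. Probe sets were named from the platform annotation: 41097 carried 1 symbol, 1801 several and 11777 none, and the last 2 kinds were left out. The brightest probe set over the 8 arrays stood for each gene, giving 19775 genes. YAP shRNA was compared with control shRNA by limma 3.58.1 (lmFit, eBayes) in R 4.3.3, with Benjamini-Hochberg adjustment over all genes and calls at 0.05, and the fit was tested on simulated data. YAP1 alone also had a two-sided exact permutation test (p = 0.0286, the smallest that 4 against 4 allows). The number of arrays limits the precision.

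The members, classes and lists were chosen with earlier results of these data known. The rule for named genes took members whose groups do not overlap and whose adjusted p was below 0.05, the 12 largest rises and the 12 largest falls, up to 2 calls per direction in each class and list, the 6 members of highest control mean, the 3 genes on either side of the limit, and a fixed list of well-known carriers. SLC16A1 and SLC16A3 of that list were not analysed here. Genes named beyond the rule were chosen after their values were seen. Of the members, 4 are noncoding transcripts at solute carrier loci, and SLC7A6OS and SLC4A1AP encode no carrier. Alternatives changed the normalization, the filter, the probe set, the spread model, the threshold, the limit and the replicates (a block, and omission of each array). Leaving out chromosome 8, leaving out noncoding transcripts and fitting every probe set were added after seeing the data.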

Additional observations from a re-analysis of the deposited data

Results flagged for a closer look

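In 8 of 136 groups of 4 arrays, over YAP1 and the 67 genes taken by the rule for named genes, 1 array lay farther from the other 3 than Dixon's 95% limit; chance flags about 1 in 20 groups, or 6.8 here. Of these, 4 were control shRNA replicate 4. It stood at 11.51 for SLC25A30 where the other controls lay at 11.27 to 11.31, at 13.47 for SLC38A1 (others 13.54 to 13.56), at 8.03 for SLC25A18 (others 7.86) and at 9.09 for DDIT3 (others 8.96 to 8.98). YAP shRNA replicate 3 stood at 11.33 for SLC19A2 (others 11.26) and at 8.88 for DDIT3 (others 8.76 to 8.77). YAP shRNA replicate 1 stood at 10.42 for SLC18B1 (others 10.31 to 10.32). Control shRNA replicate 3 stood at 12.77 for YAP1 (others 12.59 to 12.61).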

How the results depend on the processing

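Over 27 alternatives and omissions of an array, 1230 of 1393 values of the 67 genes that the rule for named genes took besides YAP1 kept their direction and side of the threshold, 137 were no longer called, 8 became called and 18 changed sign, 5 of these for called genes. Genes named beyond that rule are not in this tally. YAP1 stayed between -2.20 and -2.10, with a largest limma adjusted p of 0.000902. The 27 members that rose were 17 at an adjusted p below 0.01 and 16 at a control mean of at least 9. The 17 that fell were 31 with genes below the median level left out of the fit, 27 with a mean trend in eBayes and 9 at an adjusted p below 0.01. Among all genes with a control mean of at least 8, the share called moved with the members' share, to 39.2%, 36.4% and 14.4% in those 3 settings. With each array left out in turn, 19 to 33 members rose and 13 to 19 fell, and the member median lay between -0.0058 and 0.0071. Over these fits, 18.6% to 30.6% of genes with a control mean of at least 8 were called. The replicate numbers share only a number: same-numbered arrays correlated at -0.21 to 0.0020, no control array correlated best with the YAP shRNA array of its number, and the replicate block gave 20 rises and 9 falls, with 15.6% of genes at that level called.

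Signs turned for values near 0. SLC25A5 was -0.0043 with each array centred on its median, -0.00054 with array weights, and lay between -0.0048 and 0.0084 with each array left out, below 0 without control shRNA replicate 1 or 3 or YAP shRNA replicate 1 or 4. SLC38A1 was -0.033 as the mean of its probe sets and between -0.0020 (without control shRNA replicate 4) and 0.029 with each array left out. SLC38A2 was 0.0024 without control shRNA replicate 4 and 0.0052 without YAP shRNA replicate 4, with -0.020 as its lowest value. SLC22A31 lay between -0.020 and 0.13, below 0 without replicate 1 of either group, and SLC26A6 between -0.16 and 0.018, above 0 without control shRNA replicate 3. Without probe sets marked _x_at or _s_at, another probe set stood for the gene and SLC37A1 was -0.039, SLC44A2 -0.0091, SLC11A2 -0.029, SLC25A12 -0.048 and MT1G 0.028. Without detection calls, dim values have no floor.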
